A study of Mus musculus with 5 samples.

Results

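Ribosomal protein genes were examined in mouse gastric organoids, together with the paralogs and similarly named relatives of these genes, among them Rps4l. Members were taken by gene symbol: Rpl or Rps followed by a number, or Rplp0 to Rplp2, without the ribosomal S6 kinases and without symbols of numbered pseudogenes. 87 of 23779 named genes with a probe met the rule. 75 of them are core genes of the cytosolic ribosome and 12 are relatives by symbol. 85 of the 87 were among the 17583 genes tested, and Rpl39l and Rpl3l were not well above background on any array. Another 7 symbols of the rule were not measured by a probe named here. 3 numbered pseudogene symbols on the arrays were left out. The symbol rule takes no account of signal, but Rps4l was singled out with its values known, so its levels are given as a description without a test.

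A ribosome joins a small subunit, which decodes the messenger RNA, to a large subunit, which forms the peptide bond. Each subunit holds its own set of proteins in fixed proportion. Their messenger RNAs usually begin with a run of pyrimidines, C and T in the gene, called a terminal oligopyrimidine tract, through which growth signals control their translation together. A few core proteins have paralogs that are used in particular tissues or that take part in other processes, such as the p53 response in the case of Rps27l. Unassembled proteins of the large subunit, among them Rpl5 and Rpl11, bind Mdm2 and so stabilise p53.

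Gastric organoids are hollow or solid clusters of stomach epithelial cells grown in a gel with growth factors. RNA of 5 organoid samples was hybridised to 5 one-colour Agilent arrays, 1 per sample, and each value below is a log2 signal relative to the 75th percentile of its array. The 4 tumour-derived samples were organoids recovered from tumours grown under the skin, all with Trp53 loss. 2 carried a hairpin against Cdh1 (shCdh1, hairpin 1 and hairpin 2), 1 carried Apc580D and 1 carried Pik3caH1047R. The control was a gastric organoid line from Trp53flox/flox mice that carried the vector pLKO.1 with a luciferase hairpin (shLuc) and was taken before injection. All 5 were kept in the same medium, which holds EGF, R-spondin1, Noggin, Y27632, Jagged-1 and CHIR-99021, and all are labelled stomach and female. The labels name no Trp53 loss for the control, and they do not say whether the tumours grew from it. Trp53 loss, the second lesion and growth as a tumour therefore cannot be told apart in any comparison with the control. Each sample is 1 line on 1 array, and nothing in the labels says that the pair of hairpins came from separate animals or cultures, so p-values measure only the spread between these samples, which may be technical.

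The labels and arrays were checked before the members. Trp53 had −5.07 with hairpin 1, −5.09 with hairpin 2, −5.86 in Apc and −4.86 in Pik3ca, against 0.85 in the control. Cdh1 stood at 0.07 and 0.26 with hairpins 1 and 2, and at 4.48 in Apc, 4.58 in Pik3ca and 4.39 in the control. The Pik3ca sample went against its label of sex: Xist was not well above background there (−8.14, against −0.90 to −0.69 elsewhere), and Uty, Kdm5d, Eif2s3y and Ddx3y, all on the Y chromosome, gave signal well above background there and on no other array. Results over the tumours are therefore also given without it. Of 12 gastric epithelial markers, 11 or 12 were well above background on each array. Of 7 fibroblast markers 2 to 4 were, of 7 leukocyte markers 3 to 5, of 5 endothelial markers 2 or 3 and of 4 muscle markers 3 or 4. The control and both hairpins shared 1 slide, and Apc and Pik3ca another.

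RefSeq promoter windows show clear pyrimidine tracts of 3 core genes, longer than the core median given below, beside the windows of paralogs and their parents. The windows run from 35 bases before to 25 bases after the first listed start, on the coding strand of GRCm38.p6, with the longest run of C and T within 25 bases of the start in capitals. Rps6 (chr4:86857343-86857402, minus strand), Rpl35 (chr2:39005107-39005166, minus strand) and Rps18 (chr17:33955641-33955700, minus strand) stand for the core. Rps27 (chr3:90213624-90213683, minus strand) is set beside its paralog Rps27l (chr9:66946051-66946110, plus strand), and Rpl22 (chr4:152325691-152325750, plus strand) beside Rpl22l1 (chr3:28805473-28805532, plus strand). Rps4x (chrX:102189367-102189426, minus strand) is the parent of Rps4l.
Rps6: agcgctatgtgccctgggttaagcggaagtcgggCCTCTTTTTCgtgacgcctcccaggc
Rpl35: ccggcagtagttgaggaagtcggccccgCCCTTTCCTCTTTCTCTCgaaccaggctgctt
Rps18: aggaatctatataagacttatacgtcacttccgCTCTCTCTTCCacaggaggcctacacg
Rps27: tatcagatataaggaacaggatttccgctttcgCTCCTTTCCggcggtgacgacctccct
Rps27l: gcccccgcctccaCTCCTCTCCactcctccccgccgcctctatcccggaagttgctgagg
Rpl22: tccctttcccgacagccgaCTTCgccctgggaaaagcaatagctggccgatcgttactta
Rpl22l1: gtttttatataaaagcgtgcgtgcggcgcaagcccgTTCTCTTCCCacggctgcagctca
Rps4x: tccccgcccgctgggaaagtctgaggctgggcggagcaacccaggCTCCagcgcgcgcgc

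In these windows the run spans the start or begins within 3 bases of it in Rps6, Rpl35, Rps18, Rps27 and Rpl22l1. Rps27l has 2 runs of 9 bases, as long as that of Rps27, which begin 22 bases (in capitals) and 12 bases before the listed start. Within 25 bases of the start, the longest runs of Rpl22 and Rps4x have 4 bases. Of the 75 core genes, 56 were in the promoter table. Their longest run had a median of 7 bases, and 38 (67.9%) had one of at least 6, against a median of 5 and a share of 43.9% over all 27025 promoters of the table. The letters CCGGAAGT, looked for on both strands from 250 bases before to 50 after the start, were in 10 core promoters (17.9%) and in 4% of all. CACGTG was in 5 core promoters (8.93%, against 7.24% of all) and TATAAA in 5 (8.93%, against 14.2% of all). None of these motifs contains another, and a match is a description, not a binding site.

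The core genes were even across the arrays, and none differed at least 2-fold between any tumour-derived array and the control. Their probes were well above background on all 5 arrays in 75 of 75 cases. The range of a core gene over the 5 arrays had a median of 0.33 and ran from 0.16 to 0.70 on the log2 scale, so that 75 of 75 stayed within 2-fold. Over all genes tested the median range was 0.82 and 60.2% stayed within 2-fold. For genes of like signal, 147 other genes with mean levels from 6.78 to 8.63 were taken. That span leaves out the dimmest core genes, such as Rpl37 with a mean of −3.75. These 147 genes had a median range of 0.46, and 91.8% of them stayed within 2-fold. In bulk samples fewer cells of a type and less RNA per cell cannot be told apart.

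Set against the control, the core median was 0.08 in hairpin 1, 0.16 in hairpin 2, −0.13 in Apc and 0.09 in Pik3ca. Over all genes tested the same medians were 0.08, 0.09, −0.01 and 0.06. The sign of the core medians depended on scaling, since quantile normalization gave −0.08, 0.00, 0.01 and −0.05 on the same arrays. Median centring moved the median of all genes in Apc to −0.23, and the core minus all genes was −0.12 there, as with the 75th percentile. The standard deviation over the core genes lay between 0.10 and 0.14 on these arrays, against 0.95 to 1.18 over all genes tested. No core gene passed a difference of 2-fold, where the share of all genes at least 2-fold away from the control was 17.3% in hairpin 1, 19.4% in hairpin 2, 17.8% in Apc and 22.1% in Pik3ca. Members past 2-fold in either direction numbered 2, 2, 3 and 2 of 85 on these arrays, none of them a core gene. They were Rps4l and Rpl10l on each array and Rps27l in Apc. Rpl10l was not well above background in the control, so for it this is a count of signals and not a measured 2-fold difference.

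**Figure D1:**
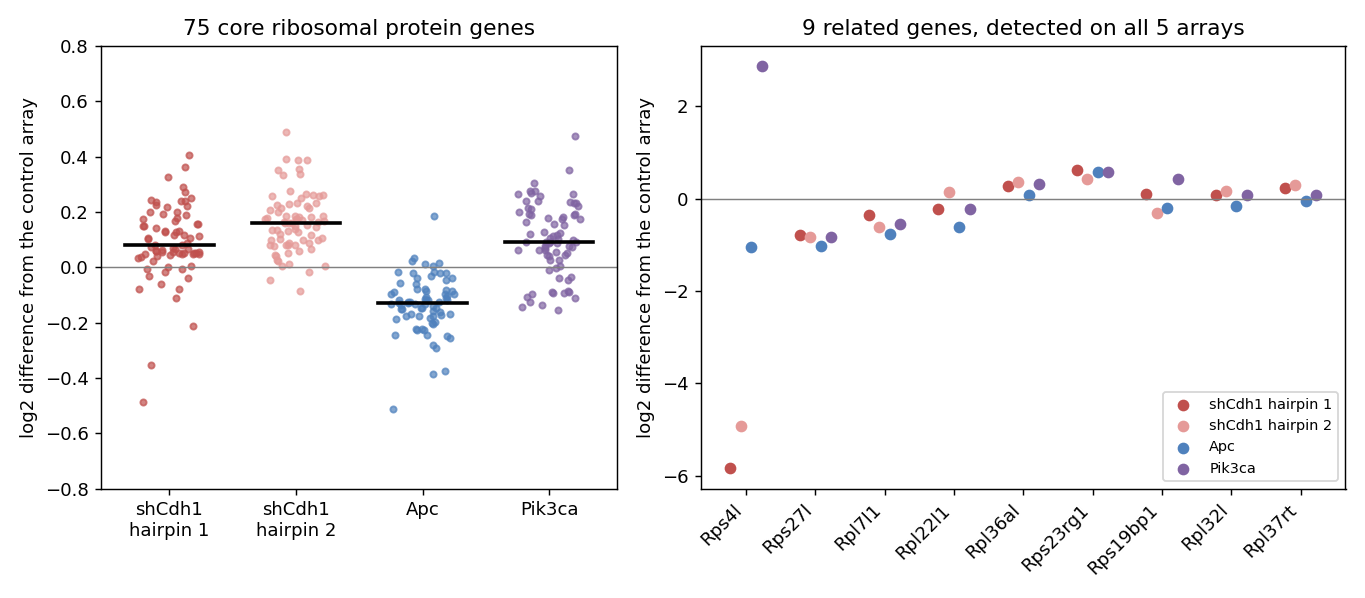
Left, each point is 1 of 75 core ribosomal protein genes, plotted as its log2 difference from the control array (vertical axis) in the 4 tumour-derived arrays, with a black line at the median; points are spread sideways at random. Right, the same difference for 9 related genes, where Rps4l runs from −5.85 to 2.87 and the 4 points of Rps27l lie between −1.03 and −0.79. The sign of the core medians changes under quantile normalization.

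Averaged over the 4 tumour-derived arrays, the core median was 0.05 from the control, against 0.07 over all genes tested, with 53 core genes higher and 22 lower, where 44.6% of all genes were lower. It was 0.03 without the Pik3ca sample, 0.02 without hairpin 2 and 0.12 without Apc, and it was −0.09 under median centring. No member of the 85 passed limma with Benjamini-Hochberg adjustment over all genes (adjusted p under 0.05), where 0.119% of all genes did, 4 of them higher and 17 lower. At an unadjusted p under 0.05, 3 of 85 members were called, Rpl10l, Rps23rg1 and Rps27l, against 13.3% of all genes. 9 members, 6 of them core, lay above the control on all 4 tumour-derived arrays, where 30.2% of all genes did. 3 members, Rpl7l1 and Rps27l among them, lay below it on all 4, where 24.4% of all genes did. Each of these shares of members was below that of all genes. Rpl10l is in the count of 3 called and in the 9 above the control. It was not well above background in the control, hairpin 1 or Apc, so for it neither is a measured difference.

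The core genes that lay above the control in all 4 tumours were Rpl5, Rplp0, Rpl34, Rpl23a, Rpl35 and Rps12. Rplp0, the base of the stalk to which the GTPase factors of translation bind, had levels of 8.04, 7.97, 7.82 and 7.90 in hairpin 1, hairpin 2, Apc and Pik3ca, against 7.64 in the control. Its mean difference was 0.30 ± 0.21 (SE; limma adjusted p = 0.589). Rpl5, which carries the 5S ribosomal RNA, had levels of 6.79, 6.91, 6.45 and 6.73 in the same order, against 6.42 in the control, a difference of 0.29 ± 0.26 (SE; limma adjusted p = 0.669). The Apc level of Rpl5 lay within 0.02 of the control, so the groups barely separate.

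Rpl11, the partner of Rpl5 on the 5S RNA, was flatter still. It had 8.26, 8.23, 8.07 and 8.25 in hairpin 1, hairpin 2, Apc and Pik3ca, against 8.19 in the control. Rpl6, a large-subunit protein, differed by 0.23 ± 0.25 (SE; limma adjusted p = 0.726). Its Apc level was 7.34, against 7.36 in the control, while the other 3 tumours lay between 7.64 and 7.75.

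Rps15a, a protein of the small subunit, had a level of 6.61 in Apc, against 7.12 in hairpin 1, 7.31 in hairpin 2, 7.16 in Pik3ca and 7.12 in the control, by the probe used. A second bright probe had 6.82 in hairpin 1, 6.92 in hairpin 2, 6.61 in Apc, 6.92 in Pik3ca and 6.82 in the control. Apc thus lay −0.51 from the control by one probe and −0.21 by the other, with no replicate check.

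Both subunits had like medians on the 75th-percentile scale. In hairpin 1, hairpin 2, Apc and Pik3ca the 29 small-subunit genes had median differences from the control of 0.07, 0.15, −0.15 and 0.04, and the 46 large-subunit genes had 0.09, 0.18, −0.12 and 0.12. The core genes lie on 19 chromosomes, with 14 on chromosome 7. The 4 X-linked core genes, Rps4x, Rpl10, Rpl36a and Rpl39, were each within 0.09 of the control in Pik3ca, the sample without Xist signal. Rpl39, the smallest of these proteins, had 7.59, 7.99, 7.70 and 7.91 in hairpin 1, hairpin 2, Apc and Pik3ca and 7.94 in the control.

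Apc was the tumour with the lowest core signal when arrays were scaled to the 75th percentile, and not under quantile normalization. 69 of 75 core genes lay below the control there, where 50.7% of all genes did, and 66 were at their lowest of the 5 arrays in Apc, where 20.4% of all genes were. Against the mean of the other tumour genotypes, 75 of 75 core genes were lower in Apc, by a median of −0.24 and between −0.58 (Rps15a) and −0.05 (Rps26), where 55.9% of all genes were lower with a median of −0.06. Of the 147 other genes of like signal, 144 were lower in Apc by this measure, with a median of −0.26. Of these 147, 63.3% were at their lowest in Apc and 72.8% lay below the control there, against 88% and 92% of the core, and these differences were not tested. Without Pik3ca, whose label is in doubt, 74 of 75 core genes were lower in Apc than with the hairpins, with a median of −0.26. Within the slide that Apc shares with Pik3ca, 74 of 75 core genes were lower in Apc than in Pik3ca, with a median of −0.23.

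Scaling changed the direction of this difference. Under quantile normalization, which forces the same distribution on every array, the core median of Apc against the other tumour genotypes was 0.06 and only 19 of 75 genes were lower. Under median centring it was −0.34, and with normexp background correction −0.21. No member passed limma in any comparison of a genotype with the control or with the other genotypes, where 0% of all genes did. At an unadjusted p under 0.05, 2 members were called for shCdh1 against the control (9.74% of all genes), 1 for Apc (9.02%) and 2 for Pik3ca (11.5%). Against the other tumour genotypes there was 1 for shCdh1 (6.03%), none for Apc (6.03%) and 1 for Pik3ca (5.73%), none of them a core gene. The members called against the control were Rpl10l and Rps4l for shCdh1 and for Pik3ca, and Rps27l for Apc. Against the other genotypes the only one was Rps4l. Rpl10l was not well above background in the control, and Rps4l was singled out with its values known, so their calls count as no evidence of a difference. The brightest spot of an array stood at a lower level in Apc (8.81) than on any other array (8.96 to 9.13), with no spot saturated, and the part of this in the core difference was not tested.

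**Figure D2:**
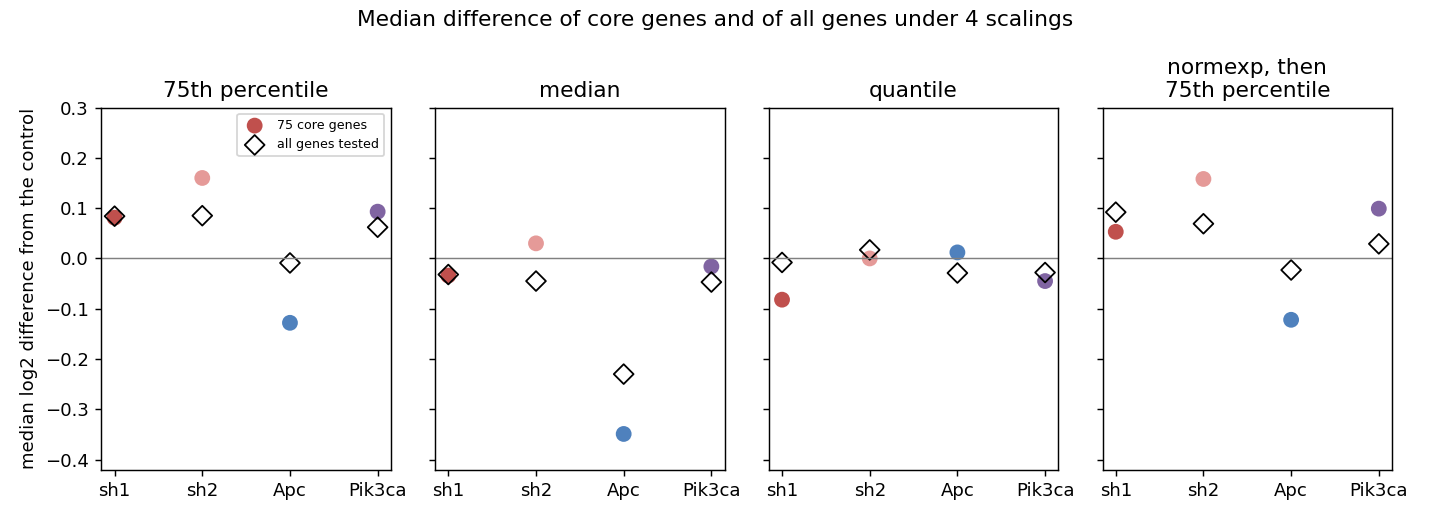
The median log2 difference from the control (vertical axis) of the 75 core genes (filled circles, coloured by array) and of all 17583 genes tested (open diamonds) in hairpin 1 (sh1), hairpin 2 (sh2), Apc and Pik3ca, under 4 ways of scaling. The Apc core median is −0.13 with the 75th percentile, −0.35 with median centring, 0.01 with quantile normalization and −0.12 with normexp.

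Rps4l parted from every other member. It was named for its likeness to Rps4x, whose protein belongs to the small subunit, and RefSeq lists it on chromosome 6 as a transcribed pseudogene, so its transcript is not shown to be translated. Its level was −4.74 with hairpin 1 and −3.82 with hairpin 2, 0.05 in Apc and 3.98 in Pik3ca, against 1.11 in the control. It was well above background on all 5 arrays. Signal was thus lowest in both shCdh1 samples, below the control in Apc and highest in Pik3ca.

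Relative to the control, Rps4l signal was 57.5-fold lower with hairpin 1, 30.5-fold lower with hairpin 2 and 2.08-fold lower in Apc, and 7.31-fold higher in Pik3ca. The lowest levels called well above background with hairpins 1 and 2 were −5.89 and −5.91, not far below those of Rps4l. Folds that involve the hairpins are therefore uncertain. Over the alternatives of processing and samples, the log2 difference of shCdh1 from the control lay between −5.85 and −3.97. The hairpins differed from each other by 1.88-fold. The span of its 5 levels was 8.71 on the log2 scale, which ranked 21st of 17583 genes. It was the one member with a range of at least 8-fold, where 7.72% of all genes had one. It was 420-fold higher in Pik3ca than with hairpin 1, a difference that 3 genes of 17583 (0.0171%), Rps4l included, reached in size. It was 223-fold higher in Pik3ca than with hairpin 2. The pair of Pik3ca and hairpin 1 was its widest. Over the other pairs of arrays, the share of genes that differed as much ran from 0.0227% (Pik3ca and hairpin 2) to 16.8% (Apc and the control). It was 3.67% for Pik3ca and the control. Rps4l was singled out with these values known, so the shares only describe it.

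The hairpins, the one group with 2 arrays, differed by 0.91 on the log2 scale. The step between Apc and the control was 1.05, close to that spread. The steps between hairpin 2 and Apc (3.88) and between Pik3ca and the control (2.87) were larger than it. The spread of the single arrays is unknown. Rps4l was fitted with all other genes tested and is included in the counts of members called above. Its p-values are not given, since it was singled out with its values known. Between arrays of the same slide, Apc lay at −3.92 from Pik3ca on one and the mean of the hairpins at −5.39 from the control on the other. These are differences of the levels given above, so their order is no separate check. The Pik3ca level rests on the sample whose sex goes against its label. Without Pik3ca the other 4 arrays still span from −4.74 to 1.11.

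Rps4x, the X-linked parent, did not follow. Its level was 6.74, 6.98, 6.65 and 6.85 in hairpin 1, hairpin 2, Apc and Pik3ca and 6.86 in the control, a span of 0.32. Its second probe also lay within 0.18 of the control on each tumour-derived array. Rps4l has 1 probe, and whether copies of Rps4x elsewhere in the genome add to its signal was not tested.

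**Figure D3:**
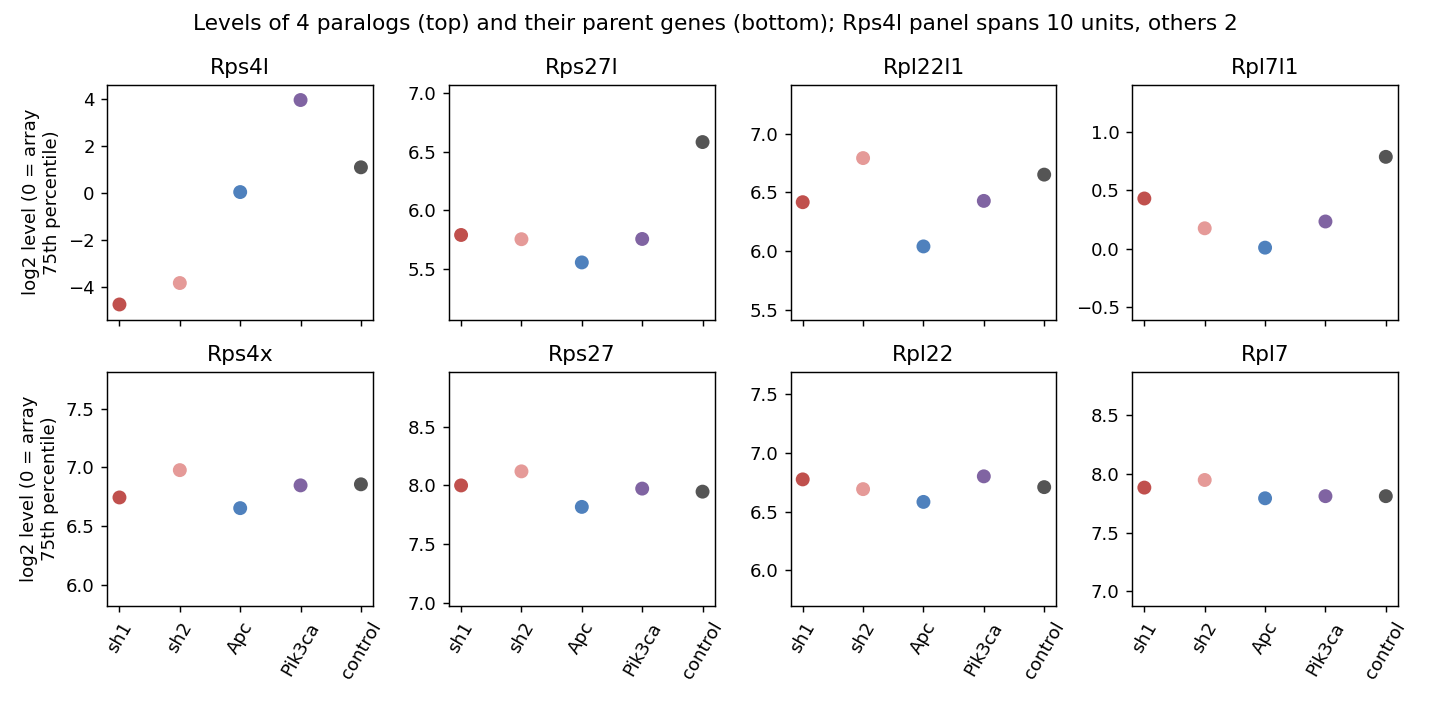
Log2 levels (vertical axis, 0 is the 75th percentile of the array) of 4 paralogs in the top row and of their parent genes in the bottom row, 1 point per array for hairpin 1 (sh1), hairpin 2 (sh2), Apc, Pik3ca and the control. Rps4l spans 8.71 on an axis of 10 units, Rps27l is highest in the control, and the 4 parents stay within 0.32 on axes of 2 units.

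Of the measured genes nearest Rps4l in RefSeq order, those well above background on all 5 arrays had other patterns. The gene directly next to Rps4l on each side was not measured. Ergic2, which encodes a protein that cycles between the endoplasmic reticulum and the Golgi, had levels between 0.97 and 1.21 on the 5 arrays. Ipo8, a nuclear import receptor, had levels between −0.24 and 0.29. Tmtc1, a transferase of the endoplasmic reticulum, had −8.13, −3.33, −4.16 and −5.54 in hairpin 1, hairpin 2, Apc and Pik3ca and −8.35 in the control, with only 3 arrays well above background. Over 12 measured neighbours the spans ran from 0.24 (Ergic2) to 5.02 (Tmtc1), against 8.71 for Rps4l. Among these neighbours, Far2, 1700049E15Rik and Gm6313 were not well above background on any array and Gm15762 on only 1, so their patterns are uncertain.

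By the root mean square difference of the 5 levels, each centred on its own mean, the genes most like Rps4l were Pitx1 (1.41), Cdh1 (1.5), Tmprss13 (1.67), Rufy4 (1.74) and Chgb (1.81). Pitx1, a homeobox factor, had −0.21 in Apc, 2.19 in Pik3ca and −1.85 in the control and was not well above background with either hairpin. Cdh1 is the target of the hairpins. These likenesses are over 5 arrays, of which 2 share a hairpin target, and a typical difference of 1.41 or more log2 units means that none was close.

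Rps27l, a paralog of Rps27 that is a transcriptional target of p53, was lower than the control in every tumour. Its level was 5.79, 5.76, 5.56 and 5.76 in hairpin 1, hairpin 2, Apc and Pik3ca, against 6.58 in the control. The 4 tumours lay between 5.56 and 5.79 and did not overlap the control. It was the one member at least 1.5-fold below the control on all 4 arrays, where 6.17% of all genes were. The mean difference was −0.87 ± 0.21 (SE), 1.83-fold lower, with a limma adjusted p of 0.262, so it did not pass. Without Pik3ca it was −0.88 (limma adjusted p = 0.415), and within the slide that holds the control the hairpins lay −0.81 from it.

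The second probe of Rps27l gave 4.77, 4.72, 4.41 and 4.65 in the tumours in the same order, against 5.60 in the control, so both probes had the 4 tumours on the same side and by a like amount. Rps27, the core gene, had 8.0, 8.12, 7.82 and 7.97 in the tumours and 7.95 in the control, and its tumours lay on both sides. Mdm2, the ubiquitin ligase that p53 induces, differed by −1.40 ± 0.22 (SE; limma adjusted p = 0.171), and Cdkn1a, a cell cycle inhibitor that p53 induces, by −2.07 ± 0.52 (SE; limma adjusted p = 0.268). Neither passed. A list of 10 genes of p53 and ribosomal stress includes Trp53, Rps27l itself and other members such as Rpl26 and Rps7, so it does not stand apart from them. Of these 10 genes, 7 were lower in the tumours, Rpl26 by only −0.01 and Rps7 by −0.12, where 44.6% of all genes were. 1 passed, where 0.119% of all genes did, and it was Trp53 itself, which the design targets.

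**Figure D4:**
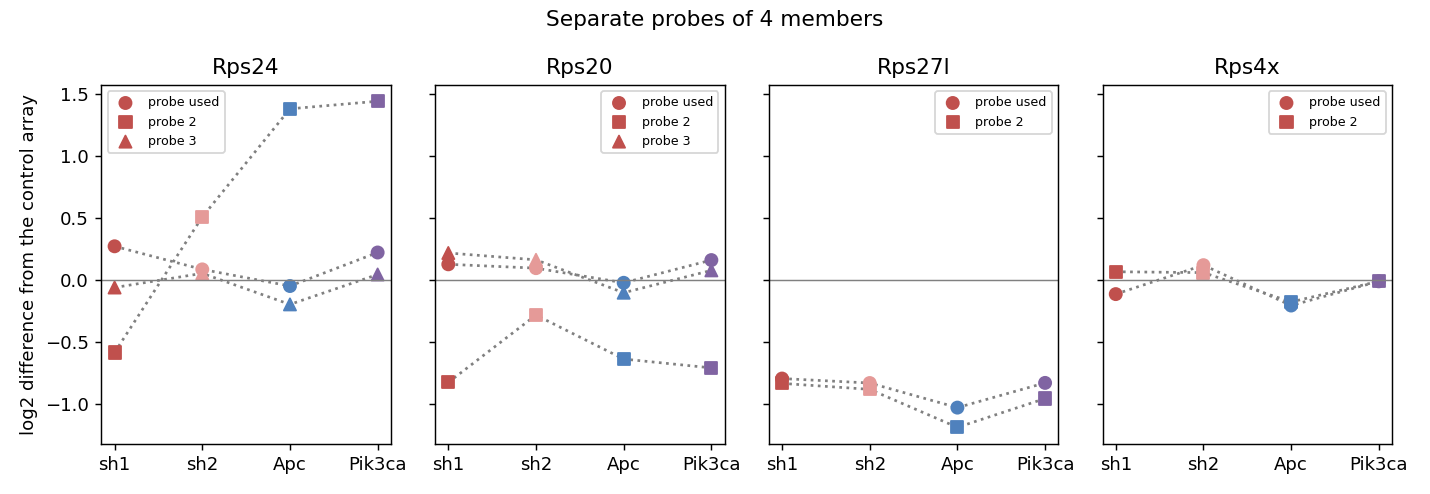
Log2 difference from the control array (vertical axis) for each separate probe of Rps24, Rps20, Rps27l and Rps4x in hairpin 1 (sh1), hairpin 2 (sh2), Apc and Pik3ca; dotted lines join the values of 1 probe. The probes of Rps27l lie together between −1.19 and −0.79, whereas 1 probe of Rps24 runs from −0.58 to 1.44 while its other probes stay within 0.27 of 0.

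None of the other relatives passed either. Rpl7l1, a nucleolar relative of Rpl7, had 0.43, 0.18, 0.01 and 0.23 in hairpin 1, hairpin 2, Apc and Pik3ca, against 0.78 in the control, with a difference of −0.57 ± 0.24 (SE; limma adjusted p = 0.406). Rpl7 itself had 7.88, 7.95, 7.79 and 7.81, against 7.81 in the control. All 4 tumours lay below the control for the relative and within 0.14 of it for the core gene.

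Rpl22l1, a paralog that can replace Rpl22 in the ribosome, had 6.42, 6.79, 6.04 and 6.43 in the tumours in the same order and 6.65 in the control. Hairpin 2 lay above the control and the other 3 below, and the difference was −0.23 ± 0.33 (SE; limma adjusted p = 0.799). Rpl22, without which mice are viable, had 6.78, 6.69, 6.58 and 6.80, against 6.71 in the control. The span of Rpl22l1 was 0.75 and that of Rpl22 was 0.22.

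Rps23rg1, a retroposed copy of Rps23, was higher in each tumour, with −0.94, −1.14, −0.99 and −0.97 in hairpin 1, hairpin 2, Apc and Pik3ca against −1.56 in the control. The difference of 0.55 ± 0.21 (SE; limma adjusted p = 0.371) did not pass. Its second probe gave differences of 0.11, 0.55, 0.22 and 0.14 on the same arrays, smaller in 3 of the 4. Rpl36al, a retroposed relative of Rpl36a, differed by 0.25 ± 0.22 (SE; limma adjusted p = 0.669) by the probe used. Its second probe lay between −0.29 and 0.04, with 3 of 4 arrays on the opposite side of the control.

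Rps19bp1, which encodes a protein that binds Rps19 and regulates Sirt1, had 2.74, 2.32, 2.44 and 3.06 in the tumours in the same order and 2.64 in the control, which lay among them. Rpl10l, a paralog of Rpl10 that serves male germ cells, was well above background in hairpin 2 and Pik3ca and not in hairpin 1, Apc or the control. With signal this close to background, no fold is given. Rpl39l, a germ-cell paralog of Rpl39, and Rpl3l, a striated-muscle paralog of Rpl3, were not well above background on any array.

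A few members give reason for care with the probe. Of 45 members with at least 2 probes well above background, none had 1 probe over 2-fold higher and another over 2-fold lower, and 3 had probes whose mean differences were more than 0.5 apart: Rps24, Rps20 and Rpl10a. Rps24, which is spliced into several forms, had 8.05, 7.86, 7.73 and 8.0 in hairpin 1, hairpin 2, Apc and Pik3ca against 7.78 in the control by the probe used. By a second, dimmer probe it had 2.05, 3.14, 4.01 and 4.07 against 2.63 in the control. That probe spans both sides of the control, highest in Apc and Pik3ca, and the third probe stayed within 0.20 of it. Which transcripts the probes read was not tested.

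The dim probe of Rps20 had −1.96, −1.42, −1.77 and −1.85 in the tumours in the same order against −1.14 in the control, while its other probes lay within 0.22 of the control. The dim probe of Rpl10a had 0.73, 1.16, 0.70 and 0.95 against 0.31 in the control, and both bright probes differed from the control by −0.26 to 0.08 in the tumours. The one probe of Rpl37 gave low signal, between −4.17 and −3.49, while that of Rpl37rt, a retroposed copy, gave 8.17 to 8.53. Core genes have many processed copies in the genome with near-identical sequence, so signal can be split or shared between such copies, and values of Rpl32l, Rpl37rt and Rps23rg1 are uncertain for this reason.

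Other parts of the translation apparatus were compared by lists. Other messenger RNAs with a terminal oligopyrimidine tract, such as those of the elongation factors Eef1a1 and Eef2, had a median of 0.06 over 18 genes, none passing. All 18 were lower in Apc than in the other tumour genotypes, by a median of −0.25, where 55.9% of all genes were lower. Of the 147 genes matched in signal to the core, 144 were lower. Several of the 18, such as Eif3e, Eif3m, Eif4b and Hnrnpa1, lay below the level span of those 147 on every array. The 147 are therefore not matched in signal to this list. Under quantile normalization, an alternative added after seeing the data, 5 of 18 were lower and the median was 0.08. Eef2 had 7.52, 7.51, 7.35 and 7.47 in hairpin 1, hairpin 2, Apc and Pik3ca and 7.43 in the control.

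Mitochondrial ribosomal protein genes, whose products translate the mitochondrial genome, had a median of −0.14 over 78 genes. 57 were lower in the tumours, where 44.6% of all genes were, and none passed. Among them, Mrpl16 had 3.08, 3.08, 4.07 and 3.07 in the tumours in the same order against 4.37 in the control, so that Apc lay near the control and the other 3 lower. Its difference was −1.04 ± 0.47 (SE; limma adjusted p = 0.430). Mrps2 differed by −0.84 ± 0.32 and Mrpl45 by 0.46 ± 0.22 (SE; limma adjusted p = 0.374 and 0.453).

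Ribosome biogenesis factors had a median of −0.06 over 59 genes, against 0.07 over all genes, with 35 lower (44.6% of all genes were) and none passing. Fbl, the methyltransferase of ribosomal RNA, had 5.28, 5.21, 5.12 and 5.43 in the tumours in the same order and 5.35 in the control. RNA polymerase I genes had a median of −0.10 over 11 genes and −0.55 in Pik3ca. Polr1e, a subunit of that enzyme, had −1.18, −1.53, −0.77 and −1.16 in the tumours against −0.18 in the control, a difference of −0.98 ± 0.33 (SE; limma adjusted p = 0.338). The Myc network list, which holds Myc together with antagonists such as Mxd4, had a median of 0.33 over 11 genes. 7 were higher and 4 lower, with none passing. Myc differed by 0.39 ± 0.26 and Mxd4 by −1.49 ± 0.38 (SE; limma adjusted p = 0.571 and 0.266). Mxd1 and Mxd3, of the same family as Mxd4, differed by 0.41 ± 0.32 and 0.37 ± 0.49 (SE; limma adjusted p = 0.629 and 0.780). Mycn differed by −0.95 ± 1.37 (SE; limma adjusted p = 0.802).

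**Figure D5:**
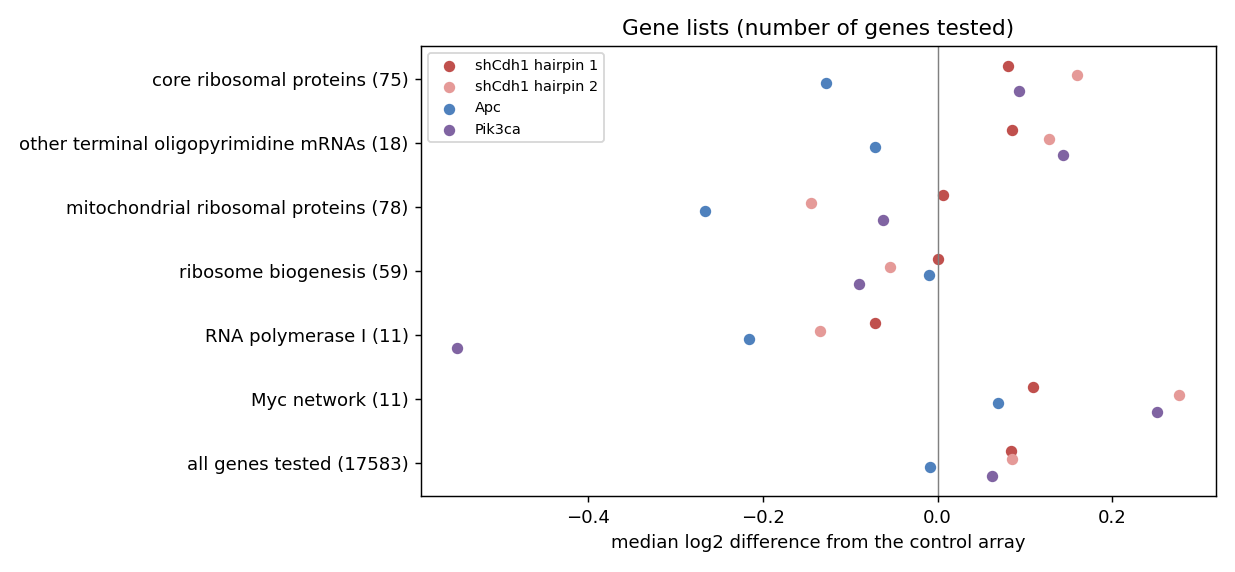
Median log2 difference from the control array (horizontal axis) of each gene list, with the number of genes tested in parentheses, 1 point per tumour-derived array. The 75 core genes lie between −0.13 and 0.16 on the 75th-percentile scale, a sign that quantile normalization changes, and the furthest point is RNA polymerase I in Pik3ca at −0.55.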

How the data were processed

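Per the labels' protocols, Cy3-labelled cRNA was made from column-purified total RNA. The submitters' processing notes name Agilent Feature Extraction 11.0.1.1 as the scanner software. The deposited processed signal is an intensity that, per the file headers, was background-subtracted without normalization between arrays. The authors also deposited a log2 value table. Its differences from the control matched the scanner values (slope 1, r = 1 over 53335 probes), its column medians were 0.074 and 0.031 (hairpins 1 and 2), −0.080 (Apc), 0.022 (Pik3ca) and −0.057 (control), and the baseline of each probe stays unknown.

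From each array's log2 signal the 75th percentile of 59305 non-control spots was subtracted. Control and outlier spots were left out (78 to 114 outliers per array), repeated spots were averaged, and 32 of 56605 probes without a value on every array were dropped. The share of spots well above background was 61.8% to 65.3%, and the number of arrays limits the precision. Of all probes, 34549 matched 1 symbol through their accession in a RefSeq table of GRCm38.p6 and 22024 did not. The probe with the highest mean stood for a gene. 17583 genes with a probe well above background on any array went into limma 3.58.1 in R 4.3.3 in 7 two-sided comparisons (Benjamini-Hochberg over the 17583 genes). The tumours against the control used 3 residual degrees of freedom, with the lone control assumed to vary like the tumours. Single genotypes used 1, from the pair of hairpins. On simulated data for the tumours against the control (17583 genes), 31 of 50 genes shifted by 4 log2 units and 0 of 50 shifted by 1 were called.

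Members, lists and named genes were chosen with earlier results of these data known. Named genes are the paralogs with their parents, the highest and lowest differences among members, and members that were dim or whose probes disagreed; some that this rule names are not reported here. Promoter windows come from RefSeq. Probe positions were not analysed here. The alternatives changed scaling, background correction, filters, the probe per gene, the slide as a block and the samples.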

Additional observations from a re-analysis of the deposited data

Results flagged for a closer look

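Over the 4 tumour-derived arrays, 6 of 85 members (7.06%) had a level in Apc apart from and below the other 3, by a gap that took up more of their whole spread than Dixon's limit for 4 values, which chance exceeds in about 1 of 20 groups. Over all genes tested 5.85% had any one array apart in this way, and 0.882% had Apc apart and low. Of those named in the text, the gap as a share of the spread was 0.846 for Rps27l, 0.924 for Rpl9, 0.868 for Rps27a and 0.864 for Rpl11. The gaps were small in size: Rps27l had 5.56 in Apc and 5.76 to 5.79 in the others, Rpl9 had 7.45 and 7.80 to 7.83, and Rps27a had 8.15 and 8.41 to 8.45. A second Rps27a probe was not well above background in the control, and averaging both probes gave a difference of 0.77 between the tumours and the control, against 0.18 by the probe used. Core genes as a group were also lower in Apc on the 75th-percentile scale, and not under quantile normalization. On the 75th-percentile scale, 144 of the 147 other genes of like signal were also lower in Apc than in the other tumour genotypes. How many of them had Apc apart by Dixon's limit was not counted.

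For Rps4l the hairpins averaged −5.388 from the control and Pik3ca 2.869, on opposite sides, a difference that was not tested. Both hairpins lay above the control and Apc below it in 55 of 75 core genes (73.3%), against 10.8% of all genes, on the scale on which the core median was 0.12 over the hairpins and −0.128 in Apc. Of the 147 other genes of like signal, 125 lay above the control with hairpin 1 and 115 with hairpin 2, and 107 lay below it in Apc. How many of them did all of this together was not counted, so the pattern is not shown to be particular to the core. These differences were not tested either. Among the core genes named, the hairpins and Apc had 0.029 and −0.292 for Rps9, 0.249 and −0.112 for Rpl9, 0.26 and −0.019 for Rps27a, 0.33 and −0.096 for Rpl14, and 0.34 and −0.022 for Rpl6. They had 0.113 and −0.13 for Rps27, 0.105 and −0.018 for Rpl7, 0.052 and −0.119 for Rpl11, 0.18 and −0.047 for Rps24, 0.113 and −0.021 for Rps20, and 0.051 and −0.257 for Rpl10a. Pik3ca also lay below the control for Rps9 (−0.094), Rpl7 (−0.001) and Rpl10a (−0.088).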

How the results depend on the processing

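No member passed the threshold under any alternative that gave a test. The core median against the control was −0.0914 for all tumours under median centring. It was −0.0472 for shCdh1, 0.0125 for Apc and −0.0454 for Pik3ca under quantile normalization, and −0.0003, −0.3485 and −0.0165 for the same genotypes under median centring. Against the other tumour genotypes it was −0.0166 for shCdh1, 0.0595 for Apc and −0.0392 for Pik3ca under quantile normalization, and −0.3432 for Apc and 0.1577 for Pik3ca under median centring. Leaving out 1 array gave 0.0473 (without Apc) to 0.2616 (without Pik3ca) for shCdh1 and −0.0473 (without Apc) to 0.1116 (without hairpin 2) for Pik3ca. Single genes reversed as follows. Leaving out 1 array in turn, Rps19bp1 lay between −0.1418 and 0.1044 (0.0625 without Apc), Rpl37 between −0.1675 and 0.0588, and Rps15a between −0.1592 and 0.0742. With slide as a block, Rps7 was at 0.0206, Rps9 at 0.0287 and Rps15a at 0.0907. The slide of Apc and Pik3ca holds no control, so these values are the hairpins against the control and leave out the other tumours. The end of −0.81 for Rps27l below is of this kind too. Against the other genotypes in Apc, Rps4l was at −0.3545 with normexp and between −0.0230 (without hairpin 1) and 4.3341 (without Pik3ca) with 1 array left out, and Rps27l at 0.0484 under quantile normalization. In Pik3ca, Rps27l was at −0.0785 under quantile normalization and between −0.0162 (without Apc) and 0.1007 with 1 array left out. The 18 other messenger RNAs with the tract were at 0.0785 in Apc under quantile normalization. The cause was not tested. Rps27l against the control kept its direction, between −1.01 and −0.81 (adjusted p 0.157 to 0.459). No paired analysis was possible because the groups share fewer than 2 replicate numbers. Signal over background (75th percentile 24.0 to 27.9 times the background) limits what dim probes show.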

Other observations

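Among the ribosome biogenesis factors, the lowest and highest differences between the tumours and the control had all 4 tumours on one side, though none passed limma. Tsr2, a chaperone of Rps26, differed by −1.39 ± 0.56 (SE; limma adjusted p = 0.387), and Rrp12, which takes part in exporting pre-ribosomes, by −0.72 ± 0.36 (SE; limma adjusted p = 0.468). The Tsr2 probe was dim, with levels of −5.30 to −4.01 in the tumours and −3.17 in the control. Its level of −5.30 with hairpin 1 was near the lowest level called well above background there (−5.89). Wdr43, which acts in processing of ribosomal RNA precursors, differed by 0.56 ± 0.21 (SE; limma adjusted p = 0.366), and Sbds, which helps to release Eif6 from the large subunit, by 0.43 ± 0.23 (SE; limma adjusted p = 0.497). These genes were picked after their values were seen.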
